A study of Rattus norvegicus with 10 samples.

Results

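Cytosolic ribosomal proteins are the protein part of the ribosome, the particle that translates mRNA. Each ribosome holds 1 copy of most of them. The large subunit (proteins named Rpl) holds the peptide bond site, and the small subunit (Rps) reads the mRNA. The mRNAs of these proteins are made and translated in step with each other. Many of these mRNAs begin with a C followed by an unbroken run of pyrimidines, the 5′ terminal oligopyrimidine (TOP) sequence, through which growth signals (the mTOR pathway) set how much of them is translated. Skeletal muscle is known for a special member, Rpl3l, a paralog of Rpl3 made almost exclusively in striated muscle.

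The members were every transcript of the table whose symbol is Rpl or Rps with a number (optionally a further letter and digit), Rplp0, Rplp1, Rplp2 or Rpsa. They were 83 of 17221 transcripts, of 80 of 16497 symbols, and included all 46 large-subunit and all 31 small-subunit symbols that were listed, with Rpl3l, Rpl22l1 and Rps4y2 as the paralogs matched. A filter on low values (at least 1 CPM, read counts scaled to library size by the authors with TMM factors, in both libraries of at least 1 group) kept 82 of them and 10259 transcripts in all. RNA came from muscle beneath the dorsal skin of female Wistar rats, all of which had been given arthritis with collagen to model the human rheumatoid disease, and the groups held 2 rats each in 1 library per rat. The RA_0 rats were sampled before therapy. The AP_1h and AP_34d rats had acupuncture, short needles put into the lower back and the lower leg on both sides and twirled, and were sampled at 1 h or 34 days. The PLA_1h and PLA_34d rats had the placebo, saline injected into the peritoneum per the methods, and were sampled at the same times. No group without arthritis is used here, the ages are not given in the sources used here, and with 2 rats per group p-values rest on few samples.

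Total reads per library ran from 5371687 to 8899521, of which the members took 1.05% (AP_34d replicate 2; 95% Wilson interval 1.04 to 1.06, counting error only) to 1.93% (AP_1h replicate 1; 1.92 to 1.93). The muscle genes Acta1 (skeletal actin) and Ckm (muscle creatine kinase) stood at 30415 to 134964 CPM and 16181 to 56881 CPM, which matches the tissue label, and the summed CPM of the keratinocyte list was 2.15 to 6.97. PLA_34d replicate 1 stood apart: its B cell and lymph node list (10 of 13 symbols found) summed to 863 CPM against 21.8 to 73.2 CPM in the other libraries, with the lymph node gene Glycam1 at 172 CPM there, 4.12 CPM in PLA_34d replicate 2 and 0 in the other 8. Slow-fibre genes summed to 1013 to 20051 CPM. In such bulk tissue, fewer cells of a type and less RNA per cell cannot be told apart.

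The start of the gene carries the sequence feature this family is known for, so the 30 bases around the annotated start are shown for the 5 members that followed the family most closely across the libraries, the 5 that followed it least, and Rpl3l. Sequences are from RefSeq (build GRCr8), 15 bases before and 15 from the annotated start on, on the strand of the gene. Capitals mark the pyrimidine run where the first transcribed base is C and at least 4 bases, each C or T, follow it.
Rpl10a (chr20:6390518-6390547, plus strand): gaaaccttctgccttCTTTTCCggttcccg
Rps28 (chr7:15311319-15311348, minus strand): gcatcccctgctcacgtgactcctctccgc
Rplp0 (chr12:46718376-46718405, minus strand): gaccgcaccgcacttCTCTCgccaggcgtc
Rpl6 (chr12:41011676-41011705, minus strand): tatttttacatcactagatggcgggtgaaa
Rps3a (chr2:173827028-173827057, minus strand): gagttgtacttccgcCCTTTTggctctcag
Rpl3 (chr7:113507976-113508005, minus strand): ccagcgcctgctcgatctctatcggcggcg
Rps4y2 (chr4:183000898-183000927, plus strand): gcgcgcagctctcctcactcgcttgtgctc
Rpl37a (chr9:81748076-81748105, plus strand): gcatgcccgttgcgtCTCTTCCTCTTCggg
Rps10 (chr20:5700730-5700759, minus strand): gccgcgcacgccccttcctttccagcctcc
Rpl17 (chr18:70856261-70856290, plus strand): tagccttcgcgcttcCTCTTCCTgttagcg
Rpl3l (chr10:14258431-14258460, plus strand): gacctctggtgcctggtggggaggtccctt
In these windows Rpl10a, Rplp0, Rps3a, Rpl37a and Rpl17 hold the run at the annotated start, and Rps28, Rpl6, Rpl3, Rps4y2, Rps10 and Rpl3l do not. Promoters were matched for 65 of the 80 member symbols, and 24 of them (36.9%) held the run at the start, against 2.63% of all 33469 promoters in the table. With the C allowed within 5 bases of the annotated start on either side, the shares were 63.1% of members and 17.04% of all promoters. The runs of the 24 were 5 to 12 bases long inside the window. The distance from the joint shift of the family (a root mean square over the libraries) had a median of 0.16 log2 units in members with the run at the start and of 0.16 in those without it.

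Ribosomal protein transcripts varied together across the libraries, and in RA_0 and AP_34d the 2 rats of the group differed by more than any group means did. For each transcript the mean of log2(CPM + 1) over the 10 libraries was subtracted, and the median over the 82 members in a library was taken as the joint shift. It was 0.65 and −0.19 in the 2 RA_0 libraries, 0.19 and 0.34 in AP_1h, −0.30 and 0.18 in PLA_1h, 0.32 and −0.55 in AP_34d, and −0.37 and −0.25 in PLA_34d. RA_0 replicate 1 was the highest and AP_34d replicate 2 the lowest, and the median over all transcripts stayed between −0.03 and 0.02 throughout. The shift was 1.57 times the mean level in RA_0 replicate 1 and 0.68 times in AP_34d replicate 2.

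**Figure D1:**
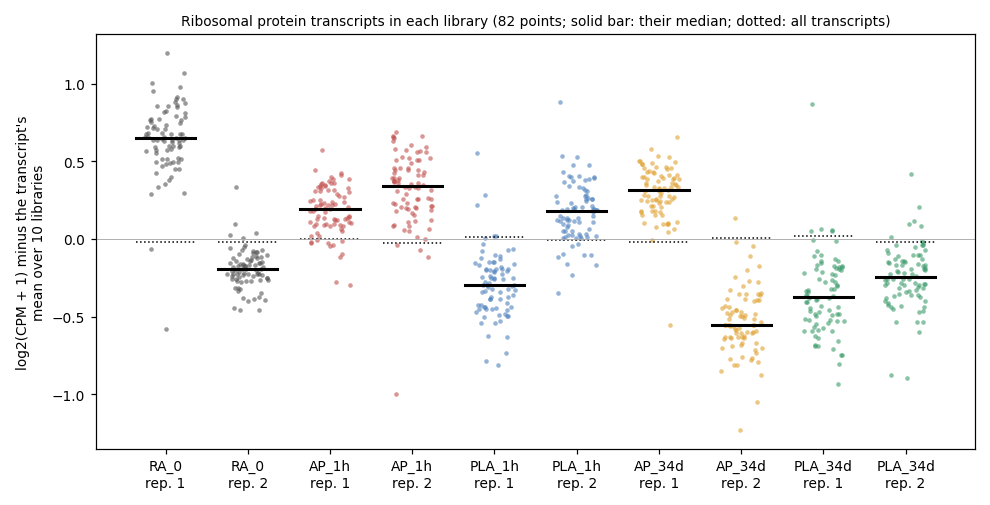
Each point is 1 of 82 ribosomal protein transcripts in 1 of 10 libraries; the vertical axis is log2(CPM + 1) minus the transcript's mean over the libraries, the solid bar the median of the members and the dotted line that of all 10259 transcripts. The members lie highest in RA_0 replicate 1 (median 0.65) and lowest in AP_34d replicate 2 (median −0.55), while the dotted lines stay near 0.

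By group the joint shift was 0.23 ± 0.60 (SD, n = 2) in RA_0, 0.27 ± 0.11 in AP_1h, −0.06 ± 0.34 in PLA_1h, −0.12 ± 0.62 in AP_34d and −0.31 ± 0.09 in PLA_34d. The 2 rats of RA_0 and of AP_34d lay further apart (0.84 and 0.87) than any 2 group means did (0.58 at most). In RA_0, 80 of 82 members were higher in replicate 1 than in replicate 2, against 47.8% of all transcripts, with a median gap of 0.84 (1.79-fold). In AP_34d, 80 of 82 were again higher in replicate 1, against 47.1% of all, with a median gap of 0.81 (1.75-fold). PLA_1h had 6 of 82 higher in replicate 1. AP_1h and PLA_34d were more even, with 24 and 30 of 82 higher in replicate 1 and median gaps of 0.17 and 0.10.

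The same libraries held the extremes for most members. RA_0 replicate 1 was the highest library for 65 of 82 members, against 15.5% of all transcripts, and AP_34d replicate 2 the lowest for 52 of 82, against 9.22%. Large and small subunits lay close together outside PLA_34d, where their medians differed by 0.09 at most in the other 8 libraries (AP_1h replicate 1). In PLA_34d they parted in opposite directions, by −0.18 (large lower) in replicate 1 and by 0.13 (large higher) in replicate 2. No test was made of the joint shift, which is a score over the members.

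TMM factors touched where the shift lies more than its size relative to other transcripts, which quantile normalization changed in some libraries. The TMM factors ran from 0.78 in RA_0 replicate 1 to 1.31 in PLA_34d replicate 1. In CPM without TMM factors the median over all transcripts itself moved from −0.34 in RA_0 replicate 1 to 0.37 in PLA_34d replicate 1, and the joint shift there became 0.30 and 0.01, with the sign of PLA_1h replicate 2 turning from 0.18 to −0.10. Relative to the median of all transcripts, the members stood at 0.67 in RA_0 replicate 1 and −0.56 in AP_34d replicate 2 as deposited, at 0.64 and −0.55 in CPM without TMM factors, and at 0.45 and −0.57 after quantile normalization. For PLA_34d replicate 1 the same difference was −0.39, −0.37 and −0.11. It was 0.19, 0.16 and 0.02 for PLA_1h replicate 2, and 0.19, 0.21 and 0.29 for AP_1h replicate 1.

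**Figure D2:**
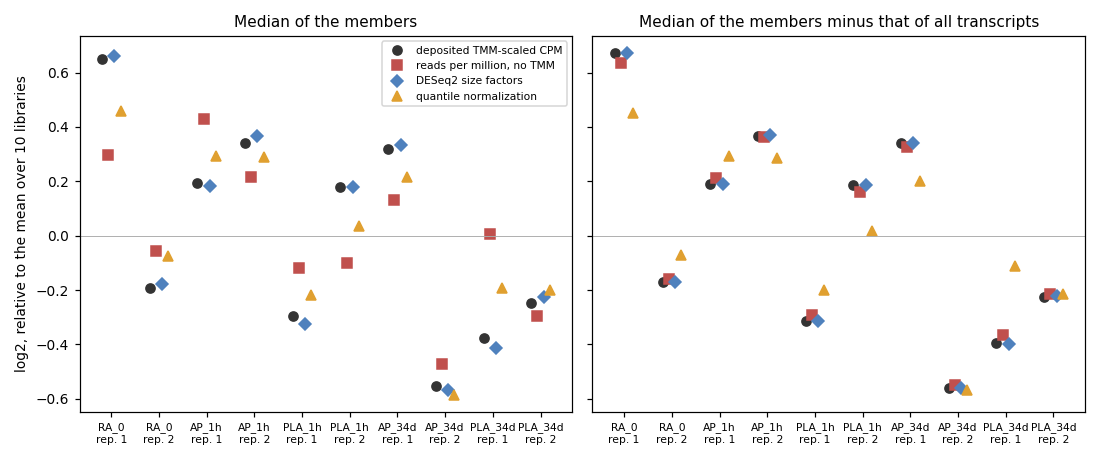
The joint shift of the members (left) and its difference from the median of all transcripts (right), in log2 units relative to the mean over 10 libraries, under 4 scalings. On the right the deposited values and those without TMM factors nearly coincide in every library (0.67 and 0.64 in RA_0 replicate 1). Quantile normalization lies nearer to 0 in RA_0 replicate 1 (0.45), PLA_1h replicate 2 (0.02) and PLA_34d replicate 1 (−0.11), and farther in AP_1h replicate 1 (0.29).

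How closely a member followed the family was measured as its distance, the root mean square over the 10 libraries of its centred value minus the joint shift. Its median was 0.15 over the 82 members, against a median spread of 0.39 before the joint shift was removed and a median of 0.05 that counting error alone would give. Removing the joint shift made the spread smaller for 79 of 82 members and for 20.04% of 6738 other transcripts of at least 10 CPM. The joint shift was computed from these members, so the first of these counts is no independent test. Only 2 members lay within their counting error, and 19 within 2 times it.

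**Figure D3:**
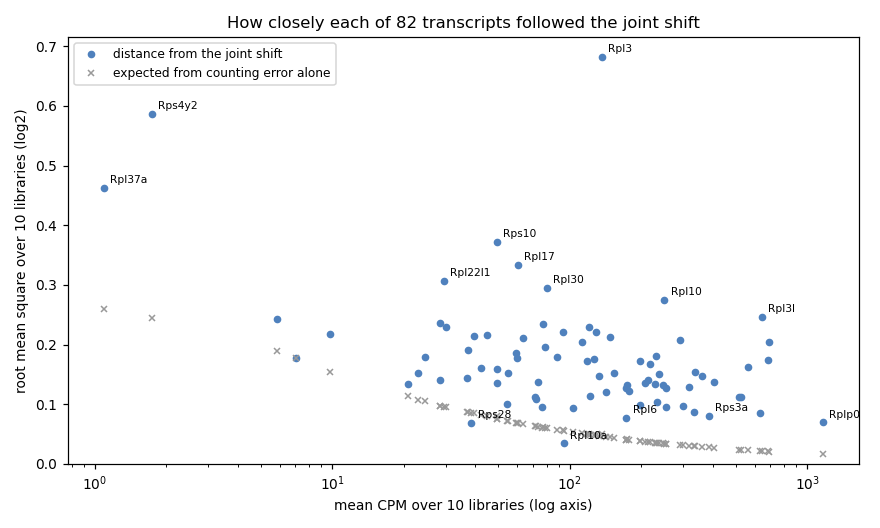
Distance of each of 82 transcripts from the joint shift (blue points; log2 units, root mean square over 10 libraries) and the distance expected from counting error alone (grey crosses), by mean CPM on a log axis. Rpl3 stands alone among the well-counted transcripts at 0.68, while Rpl10a (0.03) and Rps28 (0.07) lie at or below their counting error.

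The 5 nearest were Rpl10a (0.03), Rps28 (0.07), Rplp0 (0.07), Rpl6 (0.08) and Rps3a (0.08). Rpl10a, a protein of the large subunit's L1 stalk, which helps tRNA leave the ribosome, lay at chr20:6569083-6571641 (rn4, plus strand). The libraries gave Rpl10a values of 138 and 79.3 CPM in RA_0, 109 and 118 in AP_1h, 73.4 and 106 in PLA_1h, 114 and 61.8 in AP_34d, and 68.8 and 74.9 in PLA_34d. It was highest in RA_0 replicate 1 and lowest in AP_34d replicate 2, as the family was, and the AP_34d values overlapped those of every other group. Rplp0, the base of the ribosomal stalk that recruits elongation factors, took the most reads of any member. For Rplp0 the CPM were 1911 and 945 (RA_0), 1228 and 1505 (AP_1h), 980.3 and 1236 (PLA_1h), 1356 and 723 (AP_34d) and 869 and 923 (PLA_34d). Both RA_0 and AP_34d held 1 high and 1 low library, so that RA_0 overlapped with every other group except PLA_34d, whose libraries at 869.5 and 923 CPM were both below the lower RA_0 library. Rps28 stood at 57.5 and 31.2 CPM in RA_0, 46.1 and 47.9 in AP_1h, 28.1 and 43.5 in PLA_1h, 50 and 24.5 in AP_34d, and 27.1 and 29.6 in PLA_34d. Rps28, a small-subunit protein at the mRNA exit, had its 2 AP_1h libraries close together and its 2 RA_0 libraries far apart. Rps3a and Rpl6, of the small and the large subunit, ran from 245 to 582 CPM and from 107 to 261 CPM, each lowest in AP_34d replicate 2 and highest in RA_0 replicate 1.

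Of the 5 farthest, Rpl3 stood at 0.68, Rps4y2 at 0.59, the Rpl37a transcript NM_001108801 at 0.46, Rps10 at 0.37 and Rpl17 at 0.33. For the 2 of these rows with few reads counting error is large: Rps4y2 averaged 1.74 CPM with a counting error of 0.24, and the Rpl37a transcript 1.09 CPM with 0.26. Rps10, Rpl17 and Rpl3 had counting errors of 0.08, 0.07 and 0.05. The libraries gave Rps10 values of 94.95 and 45.6 CPM in RA_0, 56.5 and 61.3 in AP_1h, 25.1 and 41.2 in PLA_1h, 71.1 and 18.5 in AP_34d, and 46.4 and 33.1 in PLA_34d. Rps10, a protein of the small subunit's head near the mRNA entry, ranged from 18.5 CPM in AP_34d replicate 2 to 94.95 CPM in RA_0 replicate 1, the family's extremes, over a wider range. For Rpl17 the CPM were 73.0 and 45.2 (RA_0), 64.1 and 58.2 (AP_1h), 36.9 and 107 (PLA_1h), 76.0 and 55.9 (AP_34d) and 44.1 and 44.8 (PLA_34d). Rpl17, a protein at the mouth of the peptide exit tunnel, was highest in PLA_1h replicate 2, where the family as a whole was at a shift of 0.18.

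Rpl3, a core protein beside the peptide bond site, departed most from the family, and its muscle paralog Rpl3l departed less. Rpl3 lay at chr7:118314533-118319911 (rn4, minus strand) and Rpl3l at chr10:13981948-13992491 (plus strand). Rpl3 stood at 85.2 and 92.5 CPM in RA_0, 164 and 133 in AP_1h, 188 and 114 in PLA_1h, 172 and 113 in AP_34d, and 234 and 68.2 in PLA_34d. Rpl3 was lowest in PLA_34d replicate 2 and in both RA_0 libraries, and highest in PLA_34d replicate 1, the library with the lymph node genes, so that the 2 PLA_34d libraries enclosed all other values. The libraries gave Rpl3l values of 1105 and 628 CPM in RA_0, 504.2 and 785 in AP_1h, 436 and 730.1 in PLA_1h, 731 and 366 in AP_34d, and 437 and 705 in PLA_34d. Rpl3l was highest in RA_0 replicate 1 and lowest in AP_34d replicate 2, the extremes of the family, at a distance of 0.25 from the joint shift. This distance still ranked 9 from the farthest of the 82 members. In PLA_34d replicate 2 the centred value of Rpl3l was 0.21, where the joint shift was −0.25. Group means were 88.8 ± 5.20 CPM (SD, n = 2) for Rpl3 in RA_0, 149 ± 21.9 in AP_1h, 151 ± 52.6 in PLA_1h, 143 ± 42.2 in AP_34d and 151 ± 117 in PLA_34d. Every library of AP_1h, PLA_1h and AP_34d was above both RA_0 libraries, and no difference passed the test over all transcripts (adjusted p from limma of 0.73, 0.9997 and 0.97 against RA_0; unadjusted 0.19, 0.20 and 0.24). The log2 ratio of Rpl3 to Rpl3l, which is not per length and is read only across libraries, ran from −3.70 in RA_0 replicate 1 to −0.91 in PLA_34d replicate 1, a 6.93-fold span. In PLA_34d its 2 libraries differed most (−2.14 ± 1.74), in AP_34d least (−1.89 ± 0.27).

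The elongation factors that bring tRNA to the ribosome form a like pair, Eef1a1 in most cells and Eef1a2 in muscle and neurons. For Eef1a1 the CPM were 357 and 339 (RA_0), 420.0 and 499 (AP_1h), 1022 and 399 (PLA_1h), 576 and 339 (AP_34d) and 1071 and 242 (PLA_34d). Eef1a1 was highest in PLA_34d replicate 1 and PLA_1h replicate 1 and lowest in PLA_34d replicate 2. Eef1a2 stood at 3996 and 2656 CPM in RA_0, 1708 and 2584 in AP_1h, 2329.5 and 4435 in PLA_1h, 3502 and 2321 in AP_34d, and 1549.7 and 3026 in PLA_34d. Their log2 ratio ran from −3.64 in PLA_34d replicate 2 to −0.53 in PLA_34d replicate 1. In those 2 libraries the fast-fibre list summed to 148882 and 66632 CPM, and the slow-fibre list, going the other way, to 1727.5 and 20022 CPM. The fibroblast list summed there to 1009 and 1965 CPM and the T cell list to 9.24 and 267 CPM. The part of these cell types in the ratios was not tested.

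**Figure D4:**
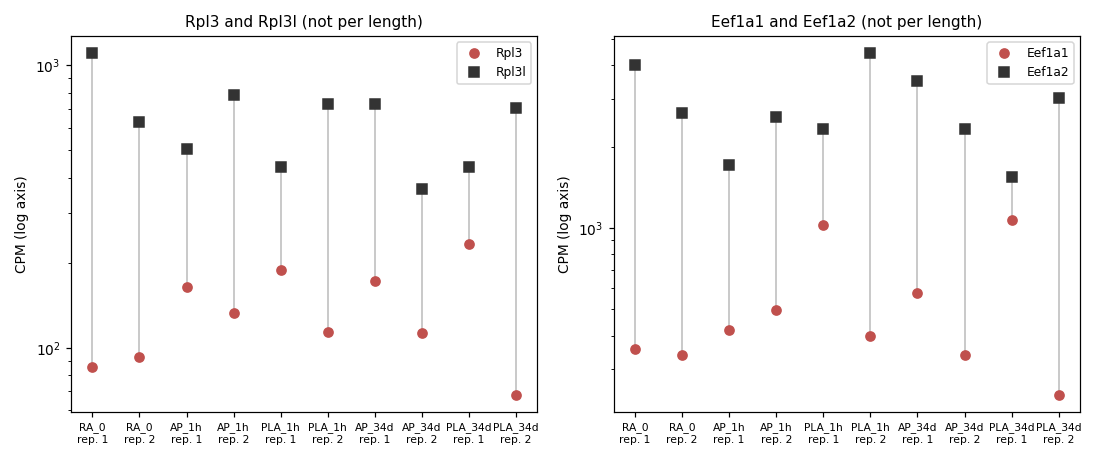
CPM (log axis) of Rpl3 and Rpl3l (left) and of Eef1a1 and Eef1a2 (right) in each of 10 libraries, joined by a grey line. CPM is not per length, so the height of a line is read only against other libraries: it is shortest for both pairs in PLA_34d replicate 1 (log2 ratios −0.91 and −0.53).

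The other paralogs had lower counts. The libraries gave Rpl22l1 values of 46.3 and 20.6 CPM in RA_0, 23.0 and 44.6 in AP_1h, 23.3 and 28.8 in PLA_1h, 30.7 and 31.4 in AP_34d, and 22.9 and 24.0 in PLA_34d. Rpl22l1, a paralog of the large-subunit protein Rpl22, lay at a distance of 0.31 from the joint shift and stood in AP_34d replicate 2 at the level of replicate 1, where most members were lower. For Rpl22 the CPM were 78.3 and 50.3 (RA_0), 67.8 and 78.8 (AP_1h), 46.1 and 53.4 (PLA_1h), 57.0 and 38.7 (AP_34d) and 36.3 and 41.1 (PLA_34d). Rpl22 followed the family more closely, and both its PLA_34d libraries were below every library of the other groups except AP_34d replicate 2, at 38.7 CPM. Group means of Rpl22l1 were 33.5 ± 18.1 CPM (SD, n = 2) in RA_0, 33.8 ± 15.3 in AP_1h, 26.0 ± 3.88 in PLA_1h, 31.0 ± 0.50 in AP_34d and 23.5 ± 0.81 in PLA_34d, closer together than the 2 RA_0 libraries. Rps4y2 stood at 2.15 and 2.23 CPM in RA_0, 2.81 and 0.280 in AP_1h, 1.98 and 2.46 in PLA_1h, 1.95 and 0.747 in AP_34d, and 0.337 and 2.42 in PLA_34d. Rps4y2, a copy of the small-subunit gene Rps4x, was lowest in AP_1h replicate 2 and PLA_34d replicate 1, at or under the level of 3 reads (0.42 and 0.34 CPM in these libraries). The libraries gave Rps4x values of 384 and 194 CPM in RA_0, 214 and 298 in AP_1h, 216 and 249 in PLA_1h, 288 and 156 in AP_34d, and 202 and 167 in PLA_34d. Rps4x followed the family. Reads from near-identical copies can be split between such genes by the alignment, so the Rps4y2 values are uncertain.

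Rplp0, Rpl4 and Rplp1 took the most reads per library on average (1168, 693 and 682 CPM, not per length), and Rpl37a NM_001108801, Rps4y2 and Rps21 the fewest (1.09, 1.74 and 5.85 CPM). For Rplp1 the CPM were 1172 and 551 (RA_0), 835 and 731 (AP_1h), 466 and 734 (PLA_1h), 889 and 412 (AP_34d) and 401 and 629 (PLA_34d). Rplp1, an acidic protein of the stalk, was again highest in RA_0 replicate 1. Rpl4 stood at 872 and 598 CPM in RA_0, 733 and 910.0 in AP_1h, 687 and 686 in PLA_1h, 731 and 566 in AP_34d, and 614 and 532 in PLA_34d. Rpl4, which lines the exit tunnel, spanned a narrower range, with both PLA_1h libraries near 687 CPM. The 1 member below the filter, Rpl37a NM_001205318 (chr9:71840515-71841495), was listed at 0 in all 10 libraries. It lies within the other Rpl37a transcript on the same strand (chr9:71840485-71841925), and reads that fit both were dropped in the authors' counting, so its 0 and the low level of its partner do not give the level of the gene. Another Rpl37a row on chromosome 5 averaged 9.78 CPM and overlaps Rpl37a-ps1, a pseudogene on the same strand. Rpl32 has 2 rows, 1 over its gene on chromosome 3 (143 CPM on average) and 1 of 463 bases on chromosome 6 (406 CPM), which overlaps Cdca7l on the opposite strand. Processed pseudogenes of this family are many, and an unspliced alignment can place exon junction reads there.

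No ribosomal protein passed the test in any comparison, while most of them lay on 1 side in every comparison but AP_1h against RA_0. With limma over all 10 libraries and a Benjamini-Hochberg adjusted p under 0.05, 0 of 82 members passed in each of the 8 comparisons and in the interaction of treatment and time. Of all 10259 transcripts, 0.0292% (3) passed in AP_1h against RA_0 and 0.0% in each of the others. At an unadjusted p under 0.05 the members also numbered 0 in every comparison, where all transcripts gave 8.89% in AP_1h, 4.77% in AP_34d, 2.59% in PLA_1h and 3.2% in PLA_34d against RA_0. For AP_1h against PLA_1h and AP_34d against PLA_34d these shares of all transcripts were 4.04% and 5.47%, for AP_34d against AP_1h and PLA_34d against PLA_1h 5.35% and 2.96%, and for the interaction 4.05%. No member passed with limma-voom, edgeR or DESeq2 either, although DESeq2 called 10 to 166 transcripts per comparison. Unadjusted p under 0.05 was reached by 2 members in PLA_34d against RA_0 with edgeR and with DESeq2, and by none in the other comparisons with these tools. The share of all transcripts at that p with these tools is not given here, so nothing is read from that count. The median standard error of a member's log2 change was 0.41, and changes of the size of the family's medians were not detectable with 2 rats per group.

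Against RA_0, the family was near the level of RA_0 at 1 h of acupuncture, and lower at the median in the other 3 groups. In AP_1h against RA_0 the median log2 change was 0.02, with 42 of 82 members higher and 40 lower, and the split depended on the scaling: 72 of 82 were higher in CPM without TMM factors (median 0.18, against 0.15 for all transcripts) and 58 of 82 after quantile normalization (0.11). In AP_34d it was −0.37, with 77 of 82 lower. In PLA_1h it was −0.28, with 76 lower, and in PLA_34d −0.55 (0.68-fold), with 81 of 82 lower. This last median was −0.28 in CPM without TMM factors, against 0.23 for all transcripts, and −0.37 after quantile normalization. Members whose 2 libraries lay wholly below both RA_0 libraries numbered 32 of 82 in PLA_34d, where 14.2% of all transcripts did so, 3 in PLA_1h (13.6% of all) and 1 in AP_34d (15.9%). In AP_1h, 2 members lay wholly above both RA_0 libraries, where 20.6% of all transcripts did so. Members share the joint shift of a library and are not independent of each other, and these 4 comparisons share their RA_0 libraries. The values rest on RA_0 replicate 1: without it the 4 medians became 0.45, 0.07, 0.15 and −0.12, and without RA_0 replicate 2 they became −0.43, −0.77, −0.74 and −0.97. Without AP_34d replicate 2 the AP_34d median became 0.08.

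Of the single members against RA_0, none of which passed, Rps21 had the smallest unadjusted p in PLA_1h (log2 change −0.73, SE 0.37, unadjusted p = 0.075, adjusted p = 0.9997 from limma), followed by Rpl34 (−0.65). Rps21 and Rpl34 are proteins of the small and the large subunit. The libraries gave Rps21 values of 8.83 and 6.09 CPM in RA_0, 7.46 and 6.16 in AP_1h, 3.87 and 4.21 in PLA_1h, 8.40 and 4.48 in AP_34d, and 4.49 and 4.55 in PLA_34d. Both PLA_1h values of Rps21 were below both RA_0 values. In PLA_34d, Rpl22 (−0.69, SE 0.32, unadjusted p = 0.058, adjusted p = 0.91 from limma; 0.52 to 1 over the other settings) and Rps20 (−0.88, SE 0.43) led the lower side, and Rpl3 was the 1 member that was higher (0.51), which became −0.37 without PLA_34d replicate 1. For Rps20 the CPM were 72.5 and 28.1 (RA_0), 46.8 and 56.3 (AP_1h), 33.3 and 36.2 (PLA_1h), 46.9 and 26.4 (AP_34d) and 24.2 and 24.0 (PLA_34d). Rps20, a protein of the small subunit's head, lay in both PLA_34d libraries below the lower RA_0 library. In AP_34d, Rps16 (−0.68, SE 0.45) and Rps10 (−0.83, SE 0.57) had the smallest p on the lower side and Rpl3 (0.65) and Rpl10 (0.19) on the higher side, where Rps10 became 0.11 without AP_34d replicate 2. Rps16 stood at 324 and 153 CPM in RA_0, 176 and 207 in AP_1h, 129 and 187 in PLA_1h, 199 and 95.8 in AP_34d, and 127 and 134 in PLA_34d. In AP_1h, Rpl3 (0.73, SE 0.52) and Rpl37a NM_001108801 (0.47) were named on the higher side and Rps4y2 (−0.53) and Rpl3l (−0.40) on the lower. In PLA_1h the higher side was led by Rpl3 (0.71) and Rpl37a NM_001108801 (0.23).

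Between acupuncture and placebo, most members were higher with acupuncture at both times, though at 34 days not in CPM without TMM factors or after quantile normalization. In AP_1h against PLA_1h the median was 0.29 (1.22-fold), with 80 of 82 members higher, and 31 of 82 had both AP_1h libraries above both PLA_1h libraries, where 13.9% of all transcripts did so. The joint shifts of the 2 groups nearly touched (0.19 and 0.34 against −0.30 and 0.18), and the median became 0.09 without PLA_1h replicate 1 and 0.56 without PLA_1h replicate 2. Rpl30, a large-subunit protein (0.77, SE 0.42, unadjusted p = 0.0996), and Rpl22 (0.55, SE 0.32) had the smallest p, and Rps4y2 (−0.54) and Rpl17 (−0.04) were the 2 lower members. The libraries gave Rpl30 values of 114 and 75.7 CPM in RA_0, 101 and 109 in AP_1h, 43.4 and 86.0 in PLA_1h, 104 and 60.9 in AP_34d, and 65.6 and 40.7 in PLA_34d. The 2 AP_1h values of Rpl30 were above both PLA_1h values, which themselves lay far apart. At 34 days, AP_34d against PLA_34d gave a median of 0.17, with 72 of 82 higher, and only 3 of 82 members had both AP_34d libraries above both PLA_34d libraries, where 16% of all transcripts did so. AP_34d replicate 2 was below both PLA_34d libraries in the joint shift and replicate 1 above them, and the median became 0.60 without the first and −0.23 without the second. In CPM without TMM factors that median was −0.04, with 36 of 82 higher, against −0.19 for all transcripts, and after quantile normalization 41 of 82 were higher. Rpl30 (0.61, SE 0.42) and Rpl7a (0.50) had the smallest p on the higher side, and Rpl37a NM_001108801 (−0.23) and Rps3 (−0.12) on the lower.

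**Figure D5:**
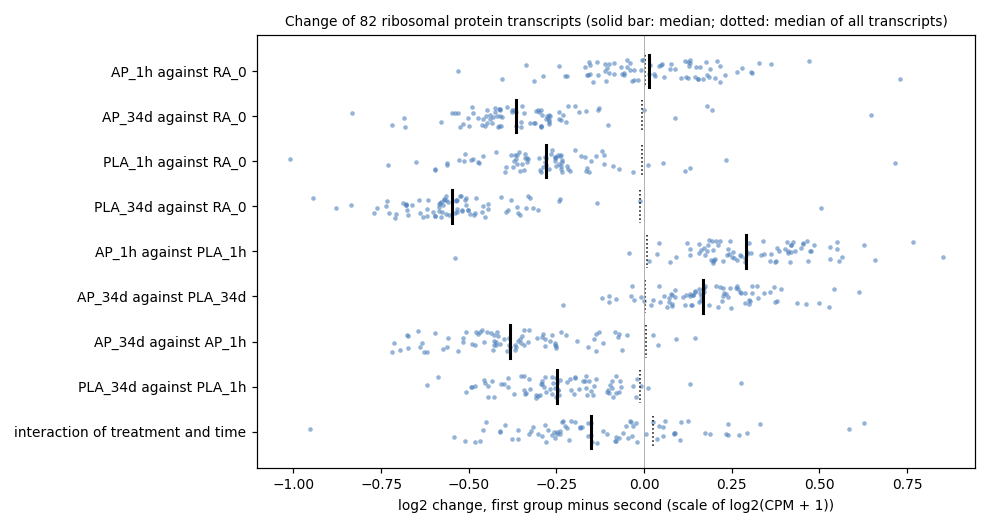
Each point is the log2 change of 1 of 82 members (first group minus second, on the log2(CPM + 1) scale) in 1 of 8 comparisons and in the interaction; solid bars are medians of the members, dotted lines those of all transcripts. The members lie mostly on 1 side in 7 comparisons and around 0 in AP_1h against RA_0 (median 0.02), and no point passed the test.

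Over time the family was lower at 34 days than at 1 h in both arms at the median. In AP_34d against AP_1h it was −0.38, with 78 of 82 lower, and 13 of 82 had both AP_34d libraries below both AP_1h libraries, where 16% of all transcripts did so. It became 0.04 without AP_34d replicate 2 and −0.81 without AP_34d replicate 1. Rpl23 (−0.72, SE 0.36, unadjusted p = 0.073, adjusted p = 0.94 from limma) and Rps24 (−0.67, SE 0.34) had the smallest p, and Rpl10 (0.15) and Rpl17 (0.09) on the higher side. For Rpl23 the CPM were 269 and 169.9 (RA_0), 260.0 and 269 (AP_1h), 182 and 195 (PLA_1h), 204 and 126 (AP_34d) and 127 and 174 (PLA_34d). Rpl23, a large-subunit protein, was lower in both AP_34d libraries than in either AP_1h library. Rps24 stood at 194 and 128 CPM in RA_0, 159 and 227 in AP_1h, 146 and 135 in PLA_1h, 144 and 98.0 in AP_34d, and 119 and 132 in PLA_34d. The libraries gave Rpl10 values of 347 and 177 CPM in RA_0, 285 and 230.5 in AP_1h, 172 and 290.1 in PLA_1h, 336 and 239.6 in AP_34d, and 169 and 259 in PLA_34d. Rpl10, which completes the large subunit, kept a level in AP_34d replicate 2 within the range of the AP_1h libraries, where most members were lower. In PLA_34d against PLA_1h the median was −0.25, with 79 of 82 lower, and 22 of 82 did not overlap, where 14.4% of all transcripts did so. It became −0.46 without PLA_1h replicate 1 and 0.01 without PLA_1h replicate 2. Rpl38 (−0.62, SE 0.46) and Rps20 (−0.51) had the smallest p on the lower side, and Rps10 (0.28) and Rps21 (0.13) on the higher. In CPM without TMM factors this median was −0.04, with 34 of 82 higher, against 0.18 for all transcripts, and after quantile normalization −0.12, with 20 of 82 higher.

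The interaction, the acupuncture effect at 34 days minus that at 1 h, had a median of −0.15, with 59 of 82 members below 0, and became 0.30 without AP_34d replicate 2. It was −0.47 in CPM without TMM factors, with 3 of 82 above 0 and −0.26 for all transcripts, and −0.35 after quantile normalization, with 10 of 82 above 0. Rps10 (−0.95, SE 0.81, unadjusted p = 0.27, adjusted p = 0.9998 from limma) and Rps24 (−0.51) had the smallest p below 0, and Rpl17 (0.59) and Rps4y2 (0.63) above it.

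Other translation genes followed the ribosomal proteins in part. Among the ribosomal proteins outside the naming rule, Rpl36al is a further large-subunit protein, and the 3 rows of Fau (a small-subunit fusion) were listed at 0 in all libraries. Reads that fit several rows were dropped in the authors' counting, so this 0 may not give the level of Fau, which was not checked. Rpl36al stood at 228 and 109 CPM in RA_0, 162 and 199 in AP_1h, 119 and 199 in PLA_1h, 198 and 114 in AP_34d, and 94.1 and 158 in PLA_34d. Rpl36al shared the high of RA_0 replicate 1, and was lowest in PLA_34d replicate 1. Gnb2l1, today Rack1, a scaffold on the small subunit, was 1 of the transcripts nearest to the joint shift. The libraries gave Gnb2l1 values of 615 and 339 CPM in RA_0, 400.0 and 434 in AP_1h, 294 and 440.0 in PLA_1h, 413 and 324 in AP_34d, and 344 and 324 in PLA_34d. Of the 3 tested rows of this list none passed, and the smallest p was that of Gnb2l1 in PLA_34d against RA_0 (−0.45, SE 0.38, unadjusted p = 0.27, adjusted p = 0.91 from limma).

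Among 2555 kept transcripts outside the rule with a mean of at least 50 CPM, the 10 nearest to the joint shift, by the same distance over 10 libraries, were LOC297756 (0.11), Tecr (0.14), Tpt1 (0.14), RGD1359290 (0.15), Gnb2l1 (0.16), Akr1b1 (0.16), Cript (0.16), Ssu72 (0.17), Map2k2 (0.17) and Snf8 (0.17). Tpt1, the translationally controlled tumour protein, whose mRNA is a known TOP mRNA, and Gnb2l1 were the 2 of them on the list of other TOP mRNAs. For Tpt1 the CPM were 3311 and 1667 (RA_0), 2261 and 2794 (AP_1h), 1744 and 2127 (PLA_1h), 2659.5 and 1694 (AP_34d) and 1466 and 2094 (PLA_34d). Tpt1 was highest in RA_0 replicate 1, and its 2 lowest libraries were PLA_34d replicate 1 and RA_0 replicate 2. Of the 82 members, 14 lay nearer to the joint shift than LOC297756.

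The 34 elongation and initiation factor rows and the 18 rows of other TOP mRNAs had medians between −0.34 and 0.23 and between −0.28 and 0.29 in the 10 libraries, a narrower range than that of the ribosomal proteins. None of them passed in any of the 8 comparisons, and Eif4a1, the helicase of the cap complex, in AP_1h against RA_0 (1.03, SE 0.34, unadjusted p = 0.013, adjusted p = 0.39 from limma; 0.17 to 0.95 over the other settings) and Gas5, a noncoding TOP RNA, in AP_1h against PLA_1h (1.77, SE 0.56, unadjusted p = 0.010, adjusted p = 0.82 from limma) had the smallest p of their lists. Eif4a1 stood at 74.0 and 69.1 CPM in RA_0, 164 and 132 in AP_1h, 115 and 69.5 in PLA_1h, 93.0 and 142 in AP_34d, and 86.0 and 69.5 in PLA_34d. Both AP_1h values of Eif4a1 were above both RA_0 values. The libraries gave Gas5 values of 12.6 and 35.1 CPM in RA_0, 53.6 and 67.0 in AP_1h, 27.8 and 10.2 in PLA_1h, 15.8 and 33.3 in AP_34d, and 24.6 and 24.6 in PLA_34d. Both AP_1h values of Gas5 were above those of all other groups. The elongation and initiation factors had their highest median, 0.23, in AP_34d replicate 2, where the ribosomal proteins were lowest at −0.55 and the other TOP mRNAs stood at −0.10. Their sign was that of the joint shift in the other libraries except AP_1h replicate 1 (−0.02) and PLA_1h replicate 1 (0.02). In AP_34d against RA_0, 25 of the 34 factor rows were higher (median 0.34), where the members' median was −0.37.

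The 34 ribosome biogenesis rows (nucleolar factors and RNA polymerase I subunits) parted from the proteins they assemble in the 2 libraries where those were at their extremes. Their median was highest, 0.36, in AP_34d replicate 2, where the ribosomal proteins were lowest at −0.55, and −0.12 in RA_0 replicate 1, where the ribosomal proteins were highest. In the other 8 libraries it had the sign of the joint shift, at −0.27 in RA_0 replicate 2, 0.22 and 0.15 in AP_1h, −0.0045 and 0.064 in PLA_1h, 0.15 in AP_34d replicate 1, and −0.24 and −0.27 in PLA_34d. In AP_34d against PLA_34d all 34 had a positive log2 change (median 0.50), 7 of them at an unadjusted p under 0.05, which 5.47% of all transcripts reached in either direction, and none passed after adjustment. Wdr43, a small-subunit processing factor, had the smallest p (1.06, SE 0.27, unadjusted p = 0.0026, adjusted p = 0.85 from limma; 0.053 to 0.9996 over the other settings). For Wdr43 the CPM were 40.6 and 35.3 (RA_0), 65.1 and 62.1 (AP_1h), 51.2 and 47.9 (PLA_1h), 64.3 and 77.7 (AP_34d) and 35.8 and 31.1 (PLA_34d). Both AP_34d values were above both PLA_34d values. In AP_34d against RA_0, 32 of 34 were higher (median 0.49), and in AP_1h against RA_0 27 of 34 (0.35).

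Of the 20 rows of the growth control list (mTOR pathway, Myc and their inhibitors; 19 of 26 symbols found), the median stayed between −0.14 and 0.11 in every library. The list mixes activators with inhibitors, so this median cannot show whether growth control changed, and nothing is read from it. Ddit4l, an inhibitor of mTOR complex signalling, had the smallest p, in AP_1h against RA_0 (−1.46, SE 0.37, unadjusted p = 0.0030, adjusted p = 0.24 from limma), and passed with DESeq2 alone (−1.44, adjusted p = 0.046). On simulated reads of this comparison DESeq2 made more false calls (41) than limma (10), so this pass is uncertain. Ddit4l stood at 152 and 145 CPM in RA_0, 69.1 and 41.6 in AP_1h, 96.4 and 89.5 in PLA_1h, 124 and 85.1 in AP_34d, and 53.2 and 96.4 in PLA_34d. Both AP_1h values were below both RA_0 values.

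The 67 kept rows of mitochondrial ribosomal proteins, which build the separate ribosome inside mitochondria, shared the high of RA_0 replicate 1 (median 0.61, against 0.65 for the cytosolic family) and had the sign of the joint shift in most other libraries. It was −0.13 in RA_0 replicate 2, −0.21 and 0.40 in PLA_1h, 0.29 and −0.39 in AP_34d, and −0.70 in PLA_34d replicate 1. The 2 families lay apart in PLA_34d replicate 2 and in AP_1h. In PLA_34d replicate 2 their median was 0.25 where the cytosolic one was −0.25, and in AP_1h they stood at −0.16 and 0.00 where the cytosolic family stood at 0.19 and 0.34. None of the 67 passed in any of the 8 comparisons. In AP_1h against RA_0, 56 of 67 were lower (median −0.28), and in PLA_34d against RA_0 63 of 67 (−0.47).

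Values of the cell type lists are given beside the joint shift. RA_0 replicate 1, the highest library of the family, summed to 164114 CPM over 8 fast-fibre rows and 20051 CPM over the slow-fibre rows, and AP_34d replicate 2, the lowest, to 137252 and 1924 CPM. PLA_1h replicate 2, with the highest fast-fibre sum (182075 CPM), had a joint shift of 0.18, and PLA_34d replicate 1, with the lowest (66632 CPM), one of −0.37. Fibroblast genes summed to 1400 and 3745 CPM in the 2 RA_0 libraries and to 3083 and 1315 CPM in the 2 AP_34d libraries. The pre-rRNA transcript Rn45s took 1.12% and 0.876% of reads in RA_0 and 1.12% and 0.336% in AP_34d. Its shares were 0.829% and 0.369% in AP_1h, 0.306% and 1.43% in PLA_1h, and 0.237% and 0.494% in PLA_34d. In AP_1h the library with the smaller Rn45s share had the larger joint shift. The median over the fast-fibre rows, centred like the members, was 0.64 and −0.17 in RA_0, −0.19 and 0.48 in AP_1h, −0.39 and 0.54 in PLA_1h, 0.39 and −0.33 in AP_34d, and −1.17 and 0.32 in PLA_34d. It had the sign of the joint shift in 8 of 10 libraries, all but AP_1h replicate 1 and PLA_34d replicate 2. Over the slow-fibre rows the median was 2.26 and 1.44 in RA_0, −1.84 and −1.60 in AP_1h, and 0.03 and −1.14 in PLA_1h. At 34 days it was 1.43 and −0.94 in AP_34d, and 1.81 and −1.41 in PLA_34d. The slow-fibre median parted in sign from the joint shift in RA_0 replicate 2, both AP_1h libraries, both PLA_1h libraries and PLA_34d replicate 1. The part of cell makeup or of rRNA carry-over in the joint shift was not tested.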

How the data were processed

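Muscle RNA from 10 rats in 5 groups was measured by polyadenylated RNA sequencing. Per the labels and methods, the authors trimmed reads with cutadapt 1.2.1, aligned them to rn4 with Bowtie2 2.1.0, which does not split reads over introns, counted them per transcript with HTSeq 0.5.4p3 (intersection-nonempty, which drops ambiguous reads) and scaled them with edgeR 3.4.2. CASAVA 1.8.2 gave the raw reads. The strand setting is not given in the sources used here. The deposited values are a signal, TMM-scaled CPM per transcript, in which whole reads were recovered for 100% of values within 0.01 reads. Total reads ran from 5371687 to 8899521, so that 1 CPM was worth 4.19 to 10.1 reads. Coordinates of the table are rn4, written counted from 1: olfactory receptor rows are whole codons long for 1199 of 1204 as end minus start and for 1 as end minus start plus 1, so the table's starts count from 0.

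Here log2(CPM + 1) was tested with limma 3.58.1 (R 4.3.3; 1 mean per group over all 10 libraries, eBayes with a mean trend) and Benjamini-Hochberg adjustment over the 10259 transcripts (59.6%) that both libraries of some group held at 1 CPM or more. Fold changes are on that scale and understate those of low transcripts. The study itself used limma-voom, run here on recovered reads as an alternative beside edgeR 4.0.16 and DESeq2 1.42.0. Reads were simulated for AP_1h against RA_0, with 200 of 10259 transcripts changed 4-fold, each with a mean of at least 5 CPM. On them limma recovered 57.5%, with 10 false calls, and DESeq2 75%, with 41. Smaller changes, such as the family's medians, and a shift shared by the members of a library were not simulated. Replicates of a group differed beyond sampling noise (chi-square per degree of freedom 45.7 to 107). The remaining alternatives changed the pseudocount (0.25 or 4), the filter (none, or a 5 CPM mean), the scaling (4 ways), the rows (summed per symbol) or the fit (2 groups at a time, without the trend, with a replicate block, or without each library).

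The members, lists, tests and naming rule were chosen with earlier results of these data known. Named are the 2 members per direction with the smallest p in each comparison (none passed), the paralogs with their partners, the 3 highest, 3 lowest and the unkept members by CPM, the 5 nearest to and 5 farthest from the joint shift, the 10 other transcripts nearest to it, and, of the transcripts with the smallest p in each comparison, 1 per translation list. The values of 1 other gene of these lists are not reported here. Promoter sequences were matched through RefSeq tables of GRCr8. Python 3.11.15 and matplotlib 3.10.9 were used.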

Additional observations from a re-analysis of the deposited data

How the results depend on the processing

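The count of members past the threshold was 0 under all 25 alternatives in every comparison, and the smallest adjusted p of any member was 0.26 (Rpl3, PLA_34d against RA_0, without PLA_34d replicate 2). With a replicate block the medians were those of the fit without it and no member was called (0). Deviations of equal replicate numbers correlated with mixed signs (r from −0.46 to 0.45 over 10 pairs of groups, 4 over 0.1). Such mixed values cannot decide whether equal numbers pair the rats. Medians depended on single libraries. With each library left out in turn they ran from −0.43 to 0.45 in AP_1h against RA_0, from −0.77 to 0.076 in AP_34d against RA_0, from −0.74 to 0.15 in PLA_1h against RA_0, from −0.97 to −0.12 in PLA_34d against RA_0, from −0.23 to 0.60 in AP_34d against PLA_34d, from −0.81 to 0.045 in AP_34d against AP_1h and from −0.56 to 0.30 in the interaction, with 1 library left in an arm and assumed to vary like the others. No other alternative moved a median by as much as the pooled SD of the joint shift between replicates (0.42), although quantile normalization gave −0.0034 in AP_34d against PLA_34d and edgeR and DESeq2 gave −0.04 in AP_1h against RA_0. At an unadjusted p under 0.05, up to 7 members appeared in CPM without TMM factors (AP_34d against AP_1h, where 5.35% of all transcripts reached it in the main fit). Some members also reached it in fits with a library left out. The share of all transcripts under these settings is not given here, so nothing about the members is read from it.

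Of the named members, signs turned for Rpl17 in CPM without TMM factors (0.060 in AP_1h against PLA_1h and −0.014 in AP_34d against AP_1h), for Rpl37a NM_001108801 in AP_34d against PLA_34d (0.037 after quantile normalization) and for Rps21 in PLA_34d against PLA_1h (−0.083 after quantile normalization). The Rpl37a rows summed per symbol gave 0.18 in AP_34d against PLA_34d, a value of all its rows and not of NM_001108801 alone. With a library left out, these ranges held both signs: in AP_1h against RA_0 Rps4y2 −1.32 to 0.26 and Rpl3l −0.81 to 0.0023, in AP_34d against RA_0 Rpl10 −0.29 to 0.68 and Rps10 −1.78 to 0.11, in PLA_34d against RA_0 Rpl3 −0.37 to 1.39, in AP_1h against PLA_1h Rps4y2 −1.33 to 0.25 and Rpl17 −0.80 to 0.71, in AP_34d against PLA_34d Rps3 −0.52 to 0.28, in AP_34d against AP_1h Rpl10 −0.10 to 0.39 and Rpl17 −0.13 to 0.31, in PLA_34d against PLA_1h Rps10 −0.070 to 0.63, in the interaction Rpl17 −0.17 to 1.34 and Rps4y2 −0.16 to 1.42. The cause was not tested. Depth limits the rows under 10 CPM (Rps4y2, Rps21, Rpl38 and both low Rpl37a rows).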
